A study of Mus musculus with 3 samples.

Results

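The Slc25 family of mitochondrial carriers was followed in the open chromatin of embryonic mouse liver. The members were the protein-coding genes of the GENCODE M21 annotation whose symbol is Slc25a and a number, without Slc25a37 and Slc25a38, and 45 of 21911 protein-coding genes met this rule. Every sample came from 1 group: liver of mouse embryos at 13.5 days of gestation, of a mixed C57BL/6N,129 background, homozygous for a globin mutation that removes HS2 and HS3. HS2 and HS3 are enhancer elements of the beta-globin locus control region. The labels number 3 biological replicates, which share 1 donor identifier, and whether they are separate embryos is not given, so the spread may be partly technical. No liver without the deletion is analysed here, so no effect of the deletion can be read from these data, and errors below are the spread (SD) over the 3 replicates.

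Slc25 proteins sit mostly in the inner mitochondrial membrane, which small charged molecules do not cross unaided, and each exchanges or carries a set of substrates such as nucleotides, phosphate, organic acids, amino acids or cofactors. Nuclear genes encode all of them, and the proteins are inserted by dedicated import machinery. Liver at this age is the main site of red cell formation, and red cell precursors need mitochondrial carriers for heme and iron-sulfur cluster synthesis. Hepatoblasts, the precursors of hepatocytes, use many of the same carriers for lipid, amino acid and urea metabolism.

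The assay was DNase-seq, in which the enzyme DNase I cuts accessible DNA and sequenced cut sites mark open promoters and distal elements. An open promoter here is one with a peak region shared by all 3 replicates no further than 500 bp from a GENCODE start of that gene. Its signal is that of the strongest peak in that window, read as depth-normalised cut density, and 0 means that the authors' shorter peak list held no peak there. Peak lists held 28209, 57314 and 41319 peaks in replicates 1, 2 and 3. By this rule 50.9% of all coding genes had an open promoter. Of the tissue markers, 6 of 7 red cell precursor genes had one, and their summed signal ranged from 29.5 to 48.0 over the replicates. The other red cell gene, Alas2, was at 0 in every replicate. Hepatoblast markers were open at 1 of 7 genes, Cebpa, with sums from 3.30 to 6.79. Promoter peaks were listed at 2, 5 and 1 of these 7 genes in replicates 1, 2 and 3, and Alb and Afp were at 0 in every replicate. Endothelial markers were open at 0 of 4 genes, macrophage markers at 0 of 3, neutrophil markers at 0 of 2 and mesenchymal markers at 1 of 3. In a whole tissue, a site open in few cells and a site weakly open in many cells cannot be told apart.

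Most Slc25 promoters were open. In all 3 replicates 36 of 45 members (80.0%) had an open promoter, against 50.9% of all coding genes. By single replicate a promoter peak was present at 36, 39 and 38 members, or 80.0%, 86.7% and 84.4%, against 51.4%, 57.5% and 55.5% of all coding genes. With the authors' longer peak list, 37 members (82.2%) were open, against 55.6%. The member added by the longer list was Slc25a45.

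The signal itself was not high for open promoters. The median over all 45 members was 4.21, 4.75 and 3.99 in replicates 1, 2 and 3, and the median over all coding genes was 0.781, 0.937 and 0.904. Among open promoters only, the median mean signal was 5.20 over 36 members and 5.59 over 11151 coding genes. Thus members were more often open than coding genes at large, while open members had a median just under that of all open genes. A mean signal above 5 was found at 19 members (42.2%), against 28.2% of all coding genes. Replicate 2 gave the highest value at 28 of 36 open members (77.8%), and at 75.3% of all open genes, so the family did not stand apart in this.

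**Figure D1:**
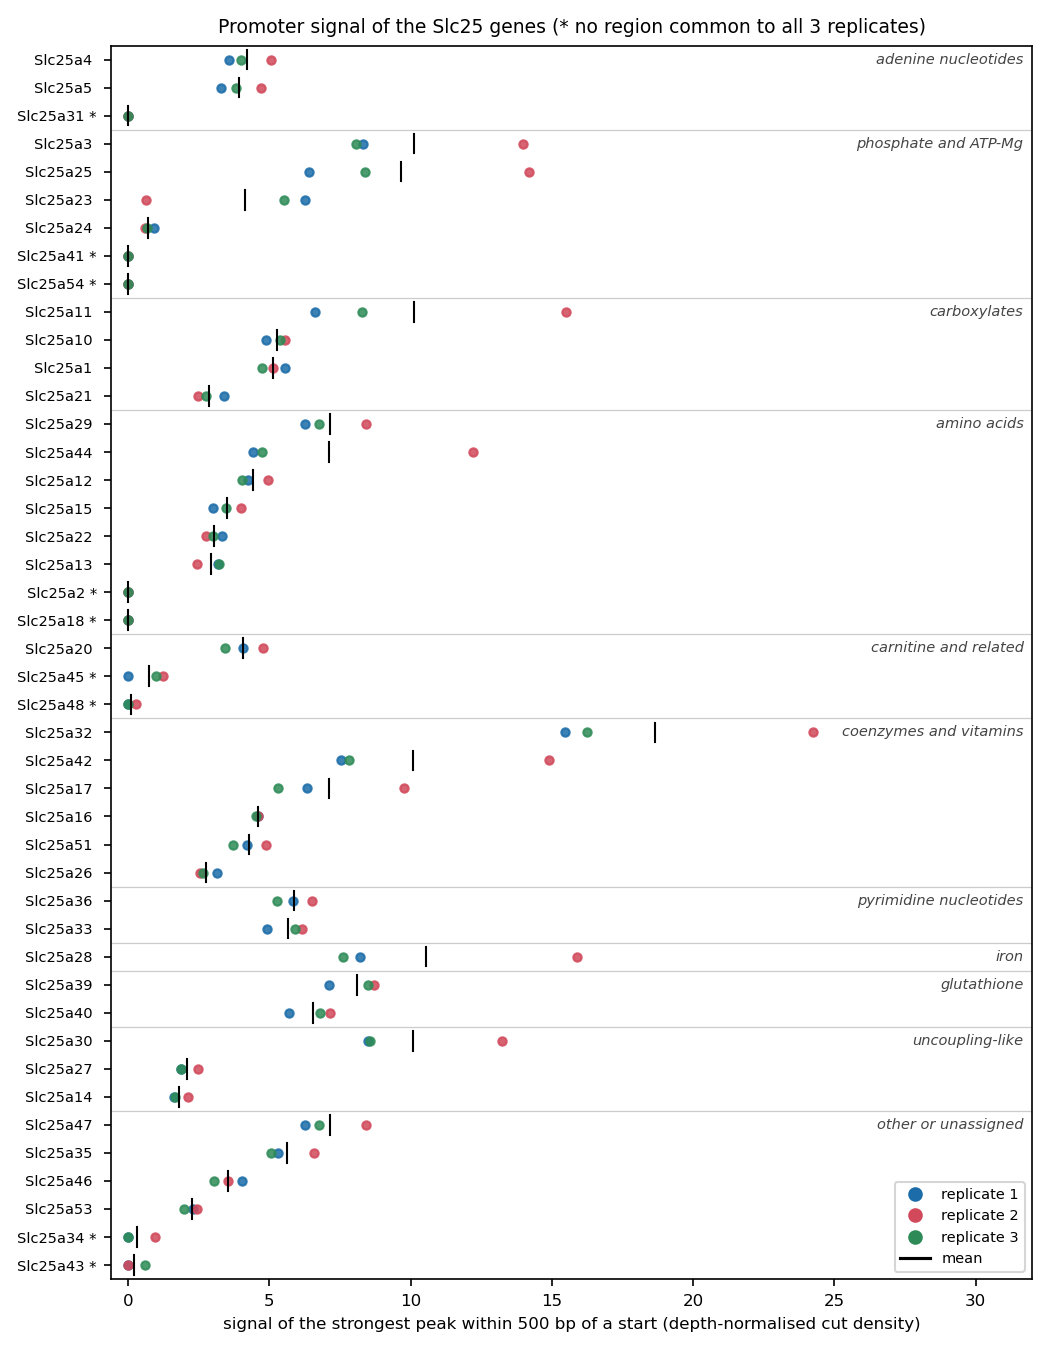
Signal of the strongest peak within 500 bp of a start (x axis, depth-normalised cut density) for the Slc25 genes reported, grouped by the substrate of the carrier. Points are the 3 replicates and the vertical line is their mean. Slc25a32 lies furthest to the right, at 15.5 to 24.2, and the 9 genes with a star sit at or near 0.

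CpG content at the start went along with the open state. The observed to expected CpG ratio in 1 kb at the 5′ start had a median of 0.724 over the open members and 0.399 over the 9 others, and 0.740 and 0.232 over all open and not open coding genes. Below a ratio of 0.4 none of 5 members was open, against 12.6% of coding genes in that range. From 0.4 to 0.6 it was 7 of 9 members (77.8%) against 53.3%, and from 0.6 to 0.8 it was 16 of 18 (88.9%) against 79.2%. At 0.8 and over all 13 members were open, against 89.0%. Within each of the upper 3 ranges the member share was above that of coding genes with like CpG content, though the number of members per range is small and no test was made.

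**Figure D2:**
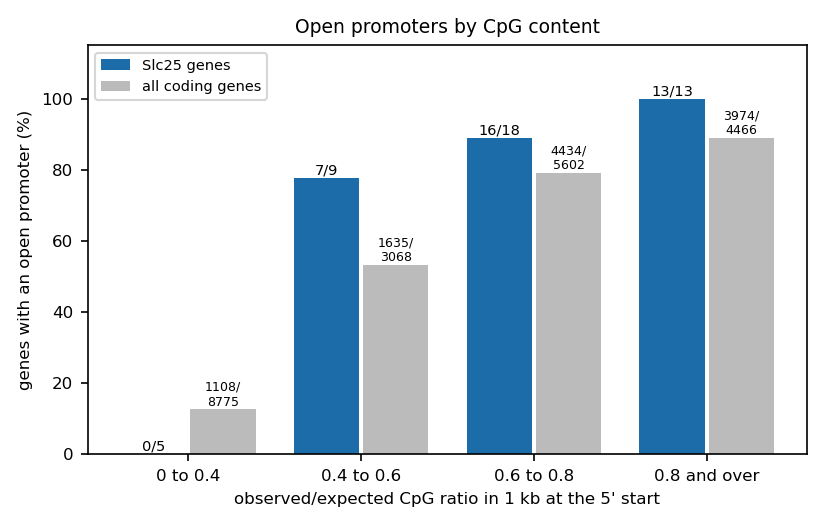
Percent of genes with an open promoter (y axis) by the CpG ratio at the 5′ start (x axis), for Slc25 genes in blue and all coding genes in grey, with the counts above each bar. The share rises with the CpG ratio in both sets, from 0 of 5 to 13 of 13 members.

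The adenine nucleotide carriers differed in accessibility although they carry the same substrate. Slc25a4 and Slc25a5 exchange ADP for ATP, the former mainly in heart and muscle and the latter in dividing cells, and Slc25a31 is the carrier of male germ cells. The promoter signal of Slc25a4 was 3.58, 5.05 and 3.99 in replicates 1, 2 and 3 (4.21 ± 0.756, SD, n = 3). That of Slc25a5 was 3.29, 4.71 and 3.80 (3.93 ± 0.720, SD, n = 3), so the ranges of these paralogs overlapped, with Slc25a4 the higher within each replicate. Both peak lists were empty at Slc25a31 in all 3 replicates, and no base near its start was listed with a false discovery rate (FDR) below 0.05. The 250 bases before the start of Slc25a5, chrX:36795401-36795650, and of Slc25a31, chr3:40708605-40708854, are shown because they hold the same number of CG dinucleotides while only the former was open. Both are on the plus strand of mm10, and capitals mark CG dinucleotides.
Slc25a5: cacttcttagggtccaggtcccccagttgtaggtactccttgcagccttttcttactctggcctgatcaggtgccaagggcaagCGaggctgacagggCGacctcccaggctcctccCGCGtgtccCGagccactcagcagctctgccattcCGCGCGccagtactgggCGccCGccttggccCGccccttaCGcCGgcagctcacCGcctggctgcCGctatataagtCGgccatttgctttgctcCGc
Slc25a31: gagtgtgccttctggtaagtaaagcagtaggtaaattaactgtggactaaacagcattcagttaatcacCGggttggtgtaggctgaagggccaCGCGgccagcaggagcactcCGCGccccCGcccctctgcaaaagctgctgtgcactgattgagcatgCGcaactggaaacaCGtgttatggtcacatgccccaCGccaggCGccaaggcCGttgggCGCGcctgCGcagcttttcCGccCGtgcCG

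Each of these windows holds 17 CG dinucleotides, and the GC content is 64.4% for Slc25a5 and 59.2% for Slc25a31. Over the wider 1 kb window the CpG ratio was 0.603 for Slc25a5 and 0.753 for Slc25a31. Among the 5962 coding genes with a ratio at least that of Slc25a31, 414 (6.94%) likewise lacked a peak of the shorter list in every replicate, and 194 (3.25%) also lacked one of the longer list. A closed promoter of such CpG content was thus uncommon but not particular to this gene.

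The same split between paralogs recurred among the carriers of phosphate and of ATP-Mg, which load the matrix with phosphate and with adenine nucleotides. Slc25a3, the phosphate carrier of oxidative phosphorylation, had a promoter signal of 8.30, 14.0 and 8.08 (10.1 ± 3.34, SD, n = 3). Slc25a25, a calcium-dependent ATP-Mg carrier, had 6.40, 14.2 and 8.38 (9.66 ± 4.05, SD, n = 3). Stronger peaks of 10.2, 18.7 and 9.30 lay further upstream of its 5′ start, beyond the 500 bp limit, and are not in this value. For both genes replicate 2 stood above the other replicates, which lay close together at Slc25a3. Slc25a24, another calcium-dependent ATP-Mg carrier, had only 0.907, 0.577 and 0.655 (0.713 ± 0.172, SD, n = 3). This was the weakest promoter still called open and lay below all but 1.87% of open genes. At Slc25a41 and Slc25a54 both lists were empty in all 3 replicates. Slc25a41 starts 11.2 kb from Slc25a23, and Slc25a54 starts 42.6 kb from Slc25a24, so each of these closed genes neighbours a paralog that was called open.

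Slc25a23, the third calcium-dependent ATP-Mg carrier, showed how the 500 bp limit acts. Its promoter value was 6.26, 0.636 and 5.53 (4.14 ± 3.06, SD, n = 3). The low value in replicate 2 does not mark a closed site. The region at chr17:57060301-57060700, 438 bp from the nearest start, had 6.26, 8.31 and 5.53, but its peak in replicate 2 was narrower and ended beyond the limit. With a window of 250 bp Slc25a23 was no longer counted, and 35 members were open.

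All 4 carboxylate carriers, which move intermediates of the citric acid cycle, were open, against 80.0% of the family. Slc25a11, the oxoglutarate-malate exchanger of the malate-aspartate shuttle, was the highest of them at 6.60, 15.5 and 8.29 (10.1 ± 4.72, SD, n = 3). Its region also lies within 500 bp of a start of Rnf167, so the signal cannot be given to one gene. Slc25a1, the citrate exporter that feeds lipid synthesis, had 5.54, 5.14 and 4.74 (5.14 ± 0.403, SD, n = 3). Slc25a10, the dicarboxylate carrier, had 4.86, 5.55 and 5.37 (5.26 ± 0.355, SD, n = 3). Slc25a21, the oxodicarboxylate carrier, was lowest at 3.38, 2.47 and 2.73. The replicates of Slc25a1 and Slc25a10 overlapped, and every replicate of Slc25a21 lay below them.

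Of the 8 amino acid carriers 6 were open, against 80.0% of the family, and the 2 that were not are members of paralog pairs. Whether such splits are more frequent than the open share of the family would give was not tested. Slc25a15, the ornithine carrier of the urea cycle, had 2.99, 3.99 and 3.46 (3.48 ± 0.503, SD, n = 3), while Slc25a2, the second ornithine carrier, had no peak. Slc25a22, a glutamate carrier, had 3.30, 2.75 and 3.01 (3.02 ± 0.274, SD, n = 3), while Slc25a18, the second glutamate carrier, had no peak. In both pairs the longer list held no peak at the closed gene either. Among the others, Slc25a12 and Slc25a13 bring glutamate into the matrix in exchange for aspartate and had mean signals of 4.41 and 2.95. Slc25a44, a carrier of branched-chain amino acids, had 4.41, 12.2 and 4.75, so its mean of 7.12 rests on replicate 2.

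Slc25a29, a carrier of basic amino acids, and Slc25a47, a carrier gene known for expression in hepatocytes, start 163 bp apart on opposite strands and share 1 region at chr12:108835761-108836100. Its signal was 6.27, 8.43 and 6.74 (7.15 ± 1.13, SD, n = 3), and it counts once for each gene. The region covers 2 of the 5 annotated starts of Slc25a47. At the other 3, which lie further downstream, neither list held a peak in any replicate. The 162 bases between the 2 outermost starts, chr12:108835884-108836045, plus strand, mm10, are shown because they lie in the region shared by both starts, whose signal cannot be given to one gene; capitals mark the footprint found there in all 3 replicates.
Slc25a29 and Slc25a47: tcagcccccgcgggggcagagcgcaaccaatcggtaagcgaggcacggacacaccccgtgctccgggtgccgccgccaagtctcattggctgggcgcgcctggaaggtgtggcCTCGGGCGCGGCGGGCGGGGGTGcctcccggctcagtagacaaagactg

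Carriers of carnitine and related compounds were mostly closed, with 1 of 3 open against 80.0% of the family. Slc25a20, which brings acylcarnitines in for fatty acid oxidation, had 4.07, 4.75 and 3.41 (4.08 ± 0.670, SD, n = 3). Slc25a45 had 0, 1.25 and 0.972, and in the longer list 1.01, 1.25 and 0.995, so it lay just outside the call. Slc25a48 had 0, 0.259 and 0, the lowest value above 0 in the family. The first was above both others in every replicate.

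The carriers of coenzymes and vitamins were open at 7 of 7 genes, against 80.0% of the family. Their median signal, 7.12, was the highest of any group with more than 2 members. Slc25a32, which carries folate or flavin cofactors, had 15.5, 24.2 and 16.2 (18.7 ± 4.86, SD, n = 3). It was the highest promoter of the family in every replicate and stood above 99.5% of all open coding genes. Slc25a42, a coenzyme A carrier, had 7.55, 14.9 and 7.83, and every replicate of it lay below every replicate of Slc25a32. Slc25a16, Slc25a17, Slc25a26 and Slc25a51 ranged in mean signal from 2.77 at Slc25a26, which carries S-adenosylmethionine, to 7.12 at Slc25a17, a coenzyme carrier of peroxisomes.

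The Slc25a32 region, chr15:39112641-39112860, also lies within 500 bp of a start of Dcaf13, which encodes a protein of ribosome synthesis. The region therefore cannot be assigned to 1 gene. Its part upstream of Slc25a32, chr15:39112717-39112860 of mm10, minus strand, is shown as the strongest promoter of the family; capitals mark footprints found in all 3 replicates.
Slc25a32: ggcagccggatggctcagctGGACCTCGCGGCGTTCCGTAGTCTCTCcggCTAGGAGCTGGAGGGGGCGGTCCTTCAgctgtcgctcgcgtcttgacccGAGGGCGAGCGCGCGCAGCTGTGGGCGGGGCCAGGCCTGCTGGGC

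Footprints took up 99 of these 144 bases. The footprint in the middle holds GGGGCGG, a word bound by Sp factors.

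The iron carrier and both glutathione carriers were open, against 80.0% of the family. Slc25a28, or mitoferrin 2, brings iron to the matrix and had 8.20, 15.9 and 7.59 (10.6 ± 4.62, SD, n = 3). Slc25a39 and Slc25a40 carry glutathione into mitochondria. Slc25a39 had 7.12, 8.70 and 8.49 (8.10 ± 0.860, SD, n = 3), and Slc25a40 had 5.70, 7.13 and 6.80 (6.54 ± 0.752, SD, n = 3). The values of these paralogs overlapped across replicates, with Slc25a39 higher within each. They leave out stronger peaks upstream of Slc25a39 in replicates 1 and 2, 7.93 and 16.3, which lay beyond the 500 bp limit. The Slc25a40 region also lies within 500 bp of a start of Dbf4, a gene of DNA replication.

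The pyrimidine nucleotide carriers Slc25a33 and Slc25a36, which supply mitochondrial DNA and RNA synthesis, had mean signals of 5.66 and 5.86. The 3 genes related to uncoupling proteins were open, against 80.0% of the family and 50.9% of all coding genes, but far apart in signal. Slc25a30 had 8.48, 13.2 and 8.57 (10.1 ± 2.72, SD, n = 3), while Slc25a14 had 1.63, 2.11 and 1.66 (1.80 ± 0.270, SD, n = 3) and Slc25a27 had 1.86, 2.47 and 1.88. Every replicate of Slc25a30 was above every replicate of the others. Of the 6 remaining members 4 were open, against 80.0% of the family: Slc25a35, Slc25a46, Slc25a47 and Slc25a53. Slc25a34 had 0, 0.937 and 0, and Slc25a43 had 0, 0 and 0.588, so each had a peak of the shorter list in a single replicate. The longer list also held a peak of 0.479 at Slc25a43 in replicate 1. The Slc25a27 region also lies within 500 bp of a start of Cyp39a1, and the Slc25a46 region within 500 bp of one of B930094E09Rik. In all, 7 of 36 open members had a region this near a start of another coding gene.

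The 9 members without an open promoter were Slc25a2, Slc25a18, Slc25a31, Slc25a34, Slc25a41, Slc25a43, Slc25a45, Slc25a48 and Slc25a54. At 5 of them, Slc25a2, Slc25a18, Slc25a31, Slc25a41 and Slc25a54, neither list held a peak and no base within 500 bp of a start passed an FDR of 0.05 in any replicate. Slc25a34 passed it only in replicate 2 and Slc25a43 only in replicates 1 and 3. Slc25a45 and Slc25a48 passed it in all 3 replicates, Slc25a48 over 7, 520 and 14 bases. Reads from copies of a sequence can fail to map uniquely. Within 500 bp of the 5′ start at least 86.2% of the 32-base words of any of the 45 members occurred once in the assembled chromosomes, with 100% at Slc25a18, Slc25a31 and Slc25a54 and 86.3% at Slc25a41. The CpG ratio of these 9 genes ranged from 0.207 to 0.753.

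Footprints, short stretches protected from DNase I inside open chromatin, were found in the promoter peaks of 34 members (75.6%) in each of the 3 replicates, against 49.7% of coding genes, whether or not they lay at the same bases. The open members outside this count were Slc25a24 and Slc25a23, whose replicate 2 peak lay beyond 500 bp as described above. A total of 101 footprints at member starts were common to the replicates. The Sp word GGGGCGG lay in 16 of them (15.8%), against 16.1% of such footprints at all promoters, so the member share was near the background.

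Words of transcription factor sites were counted, on both strands, in the 300 bases from 250 before to 50 after each 5′ start. GGGGCGG was present in 19 of 36 open members (52.8%) and 42.3% of all open promoters. The KLF words GGGTGTGG and GGGCGTGG were present in 9 (25%) against 13.5%, and the NF-Y word CCAAT in 19 (52.8%) against 39.9%. GGGCGTGG and GGGGCGG can overlap. The ETS word CCGGAAG was present in 7 (19.4%) against 18.4%, and the GATA words AGATAA and TGATAA in 4 (11.1%) against 9.92%. The 4 genes with a GATA word were Slc25a12, Slc25a23, Slc25a44 and Slc25a53. Over the promoters of all coding genes, open or not, the shares were 28.5% for the Sp word, 10.1% for KLF, 39.0% for NF-Y, 10.8% for ETS and 16.7% for GATA. The NRF1 words GCGCATGCG and GCGCCTGCG, known from genes of the respiratory chain, were in 2 open members (5.56%), against 9.61% of open promoters. A word is a match of letters and not a shown site, and these shares were not tested.

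Distal regions, over 1 kb from any annotated start and common to all 3 replicates, were present near more of the Slc25 genes than of coding genes, but their mean number per gene was about the same. At least 1 lay within 50 kb of 25 of 45 members (55.6%), against 45.0% of coding genes, and at least 3 near 4 members (8.89%), against 10.3%. The mean was 0.867 per member and 0.874 per coding gene. In all 37 distinct regions were found, with a median signal of 2.25 against 1.76 over all 8810 distal regions common to the replicates. For 27 of the 37 the nearest coding start belonged to another gene. By annotation 18 were intergenic, 13 intronic and 6 touched an exon. By single replicate 25, 40 and 34 members had a distal peak, or 55.6%, 88.9% and 75.6%, against 46.4%, 76.0% and 64.3% of coding genes.

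**Figure D3:**
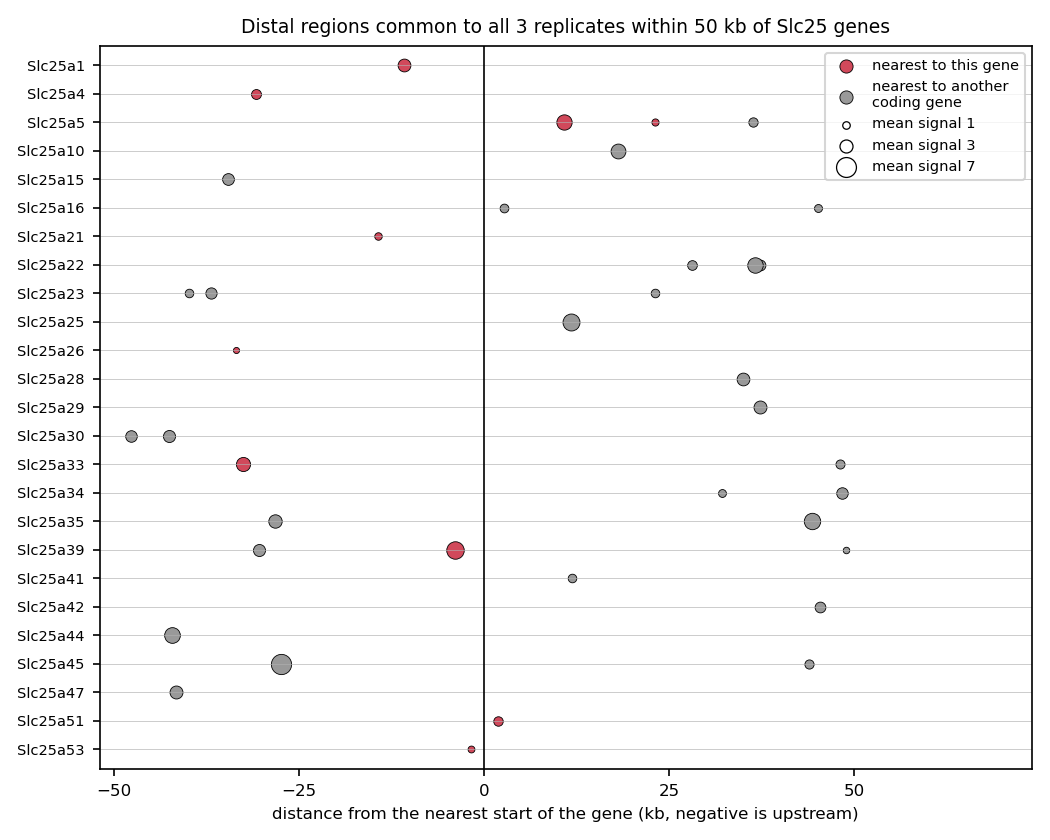
Distance of each common distal region from the nearest start of the Slc25 gene (x axis, kb) for the 25 members that have one. Point area grows with mean signal, red marks regions whose nearest coding start is that gene's, and grey marks those nearest to another gene. The largest point, upstream of Slc25a45 with a mean signal of 7.26, is grey, and the largest red point is 3.96 kb upstream of Slc25a39.

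The members with the most distal regions were Slc25a39, Slc25a22, Slc25a5 and Slc25a23, with 3 each. This order depends on the settings. Without replicate 1, Slc25a39, Slc25a45 and Slc25a30 each had 5 and Slc25a23 had 3. With the longer list Slc25a30 had 6, against 5 at Slc25a39, and within 100 kb Slc25a35 had 14, against 7 at Slc25a39. At Slc25a39 the closest lay 3.96 kb upstream at chr11:102411821-102412000, between genes, with 4.83, 6.49 and 4.95 (5.42 ± 0.929, SD, n = 3). Its 3 peaks had the same ends in every replicate. A second, 30.5 kb upstream at chr11:102438361-102438560, overlapped coding sequence of Fam171a2 with 2.70, 2.28 and 2.76. The third, 48.8 kb downstream at chr11:102355661-102355805, lay in an intron of Slc4a1, the gene of the red cell anion exchanger, with 0.781, 0.770 and 0.716. Only the first is nearer to Slc25a39 than to any other coding gene. Both upstream regions are shown on the minus strand of mm10, the strand of Slc25a39, because they carry common footprints. Capitals mark the footprints in the first and the GATA word, read on its other strand as AGATAA, in the second.
Slc25a39 upstream site: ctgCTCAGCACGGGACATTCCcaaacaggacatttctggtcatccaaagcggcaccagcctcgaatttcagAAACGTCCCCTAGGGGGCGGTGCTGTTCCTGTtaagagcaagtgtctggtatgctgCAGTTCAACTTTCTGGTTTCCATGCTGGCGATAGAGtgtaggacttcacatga
Slc25a39 far upstream site: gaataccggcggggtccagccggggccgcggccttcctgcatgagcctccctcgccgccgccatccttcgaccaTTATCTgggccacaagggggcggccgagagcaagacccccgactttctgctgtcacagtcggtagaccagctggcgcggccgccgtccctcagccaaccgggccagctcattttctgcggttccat

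The upstream site held 3 common footprints over 86 of its 180 bases, and the middle one contains the Sp word. It holds neither GATA word. In the far site a common footprint at chr11:102438455-102438487 contains both the GATA word and the Sp word. Only a fixed list of words was searched, so sites of other factors in the footprints of both sites would not be seen. GATA words were present in 16.2% of the 37 distal regions of members, in 200 bases at each centre, and in 21.8% of all common distal regions, so they were not more frequent near the family. The E-box CAGNTG was in 37.8% against 50.3%, and the NF-Y word in 35.1% against 20.9%.

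The promoter of Slc25a39 itself was in 2 pieces. One region, chr11:102407421-102407660, covers a cluster of annotated starts within the gene. The other, chr11:102408421-102408780, reaches to 475 bp upstream of the 5′ start and had 7.93, 16.3 and 8.34. It counted as a promoter region although most of it lies beyond 500 bp. Its peaks in replicates 1 and 2 ended beyond that limit, so the promoter signal given for Slc25a39 leaves out their 7.93 and 16.3.

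**Figure D4:**
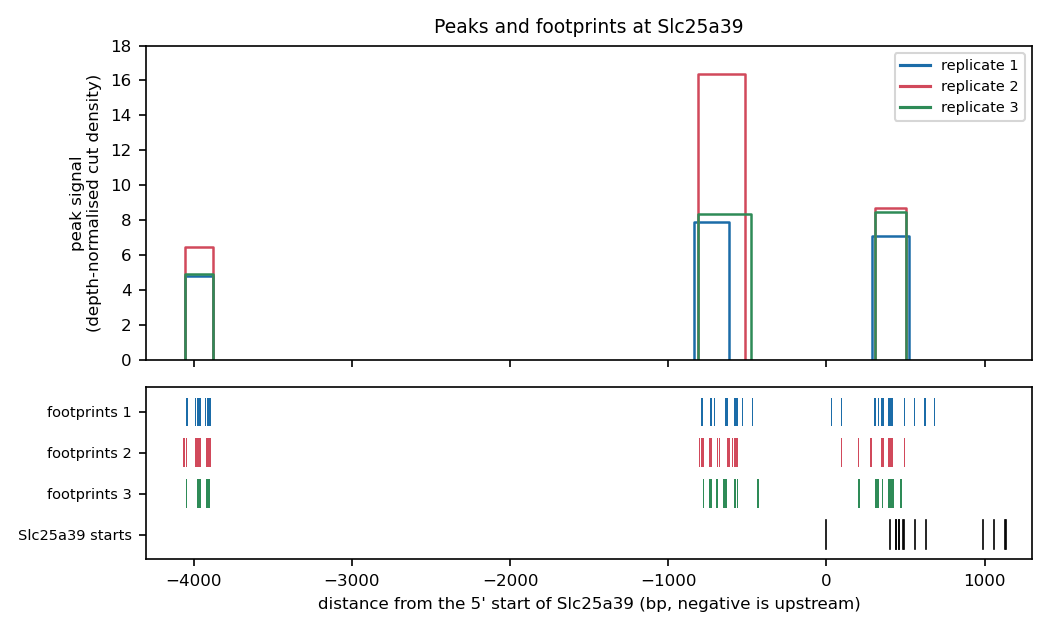
Upper panel, peaks of each replicate (height is the peak signal in depth-normalised cut density) by distance from the 5′ start of Slc25a39 in bp. Lower panel, the footprints of each replicate and the annotated starts. All 3 replicates have peaks in the same 3 places, the leftmost being the distal region with 4.83 to 6.49, and none lies on the 5′ start itself.

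No other coding gene starts within 50 kb of a start of Slc25a5, and its 3 distal regions all lie downstream. The nearest, 10.7 kb away at chrX:36807801-36808220, had 3.88, 4.67 and 3.92 (4.16 ± 0.445, SD, n = 3), about as much as the promoter of the gene. Those at 23.1 and 36.3 kb were weaker, with means of 0.914 and 1.55. The one at 36.3 kb lay in an intron of C330007P06Rik, the coding gene with the nearest start. The 3 regions near Slc25a22 are all nearest to Taldo1, the gene of transaldolase, and those near Slc25a23 to Khsrp or Tnfsf9. Within 50 kb of the starts of Slc25a22 lie starts of 10 other coding genes.

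Members with 2 distal regions included Slc25a45, Slc25a35, Slc25a33 and Slc25a30, and also Slc25a16 and Slc25a34. The strongest distal region near any member, 27.5 kb upstream of Slc25a45 at chr19:5850241-5850440, had 7.17, 7.51 and 7.09 (7.26 ± 0.225, SD, n = 3). It overlaps untranslated sequence of Frmd8 and an intron of the antisense gene Frmd8os, and lies near a member whose own promoter was not open. At Slc25a35 the regions had mean signals of 3.18 upstream and 4.78 downstream. At Slc25a33 a region 32.6 kb upstream, chr4:149806801-149807000, had 3.60, 3.10 and 3.95, and the gene's start is the nearest coding start. At Slc25a30 both lay upstream, at 42.6 and 47.8 kb, nearest to Tpt1.

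In 10 cases a distal region had a member as its nearest coding gene: near Slc25a1, Slc25a4, Slc25a21, Slc25a26, Slc25a33, Slc25a39, Slc25a51 and Slc25a53 once each, and near Slc25a5 at 2 places. Their mean signals ranged from 0.665 at Slc25a26 to 5.42 at Slc25a39. Those of Slc25a51 and Slc25a53 lay in introns of the gene, 1.82 and 1.76 kb from a start, with means of 1.59 and 0.842.

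The other genes of carrier import and of membrane transport were mostly open. Against 50.9% of all coding genes, all 10 genes of the import machinery were open, from Timm8a1 with a mean signal of 1.48 to Timm13 with 8.95, both encoding small chaperones of the space between the membranes. All 6 genes of other channels were open, the highest being Mpc2, a subunit of the pyruvate carrier, with 14.4, 22.8 and 16.1. Of 5 relatives of the family under other symbols 3 were open. Ucp2 had 9.44, 9.61 and 8.37, and Mtch1 and Mtch2, of the outer membrane, had means of 12.9 and 12.5. Ucp1, the uncoupling protein of brown fat, and Ucp3, that of muscle, were at 0 in every replicate.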

How the data were processed

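Per the deposited notes beside the files, each sample was aligned to mm10, filtered and processed without pooling. Alignment, peak and footprint programs are not given in the sources used. The signal column of the peak lists the authors deposited was read as depth-normalised cut density; its values are whole multiples of a step of 0.00753 to 0.0126 per library, and the files do not define it further. No file used here states the depth, so no counting interval is given. The deposited footprints all carry a q-value limit of 0.01, and the deposited p-value type files list bases with an FDR below 0.05.

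Gene models were those of GENCODE M21, and bases were read from GRCm38.p6, which is the files' build. Peaks of replicates that shared at least 1 bp were joined into regions, and those with a peak in all 3 were called common. Common footprints share bases in all 3, and words were searched with a margin of 4 bp. Scripts used Python 3.11.15, pysam 0.24.0 and numpy 2.4.6. Overlap and distance functions were tested on simulated intervals.

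With 1 group, no test was made. Percentages over all coding genes stand beside the main counts; counts within substrate groups are read against the family. The members, gene lists and words were chosen with earlier results of these data known. Named with values in every replicate were the 8 members with most distal regions, the 6 highest and 6 lowest promoters above 0, every member not open, and paralogs of those; 1 member is counted but not reported by name here. Alternatives were the peak list, window, distance, starts, overlap and leaving out each replicate.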

Additional observations from a re-analysis of the deposited data

How the results depend on the processing

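The count of members with an open promoter, 36, ranged from 33 to 37 over the longer list, the upper 50% of peaks, windows of 250 and 1000 bp, 1 start per gene, a stricter overlap and leaving out each replicate. Over the same settings the share of all coding genes that were open ranged from 41.9%, with the upper 50% of peaks, to 55.6%, with the longer list. The count of members with a footprint ranged from 33 to 37. At the main setting it was 34 (75.6%), against 49.7% of coding genes. The median promoter signal of 4.21 became 3.10 when divided by the median signal of each replicate, which is another scale. The 48 alternative values of named promoters each moved by less than the spread between replicates. For most of them this was fixed in advance, since leaving out 1 of 3 replicates cannot move a mean by more than their SD. The others used the longer list, which mostly held the same strongest peak, so these values are no check of stability.

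The count of 37 distal regions depended on the settings. It was 66 with the longer list, 19 with the upper 50% of peaks, 11 within 25 kb, 90 within 100 kb and 10 when each region went to its nearest coding gene only. Leaving out a replicate gave 37 to 72, with 72 without replicate 1, the library with the fewest peaks. Of 40 alternative distal counts of named members 29 stayed within 1.5 times and 11 moved. No paired analysis was possible because the labels give 1 group. Nothing here bears on the deletion, on which cells carry a site, or on which gene a distal region serves.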

Other observations

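Of the 232 annotated starts of the family 133 (57.3%) had a common region within 500 bp, against 41.2% of the starts of all coding genes. At Slc25a25 only the outermost 2 of 12 starts had one, with 6.40, 14.2 and 8.38, while most of the inner starts had no peak in either list. At Slc25a22 the region at 11 of 24 starts lay in 2 places, with 3.30, 2.53 and 3.01 at the outer one and 2.05, 2.75 and 1.76 at the inner one.

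Single replicates held further distal peaks near members. Within 50 kb of members 50, 153 and 80 distinct distal peaks were listed in replicates 1, 2 and 3, of 9898, 32280 and 19207 distal peaks in all. Near Slc25a10 there were 1, 9 and 1, and near Slc25a13 there were 0, 5 and 0. Near Slc25a30 there were 5, 9 and 7. The share of these differences that follows from the size of each list was not tested.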
